A study of Caenorhabditis elegans with 24 samples.

Results

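The comparison described here sets neuronal HLH-30/TFEB rescued animals against wildtype before any heat. It uses the 4 rescued libraries and the 3 wildtype libraries from 20°C that could be used, 7 of the 24 libraries of the series. RNA from whole animals was sequenced in the study, which asked how neuronal HLH-30 changes transcription and heat resistance in *C. elegans*. Day 1 adults of 3 genotypes spent 3 h either at their usual 20°C or under heat at 37°C, with 4 replicates labelled in each of the 6 groups.

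Wildtype animals were the N2 strain. Rescued animals were the strain LRL147, which carries the *hlh-30(tm1978)* mutation in every cell and, on top of it, *hlh-30::GFP::3XFLAG* under the *rab-3* promoter and with the *rab-3* 3′UTR. The *rab-3* promoter is active throughout the nervous system, and the other tissues of these animals keep the mutation. A red fluorescent marker under the *unc-122* promoter, which is active in coelomocytes, was injected with it. A transgenic line of this kind descends from one injected animal, so the 4 rescued libraries are replicates of a single line, and effects of the line's other genetic changes cannot be told apart from those of the transgene. Mutants without the transgene (strain LRL31, 4 libraries) are given beside single genes for orientation. Each library came from an independent population of synchronized day 1 adults that spent 3 h at 20°C on *E. coli* OP50. In bulk RNA of this kind, fewer cells of a type and less RNA per cell cannot be told apart.

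HLH-30 is the single worm member of the family of the mammalian transcription factor TFEB, a basic helix-loop-helix protein that binds E-box sequences and activates autophagy, lysosome and lipid-breakdown genes when nutrients are short. It moves between cytoplasm and nucleus in the intestine, the nervous system and other tissues. Neurons can alter gene expression in distant tissues through neuropeptides and transmitters, and the skin of the worm (the hypodermis) and its intestine carry much of the RNA of a whole animal.

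Each library held between 13261171 and 15845829 counts, and the 10 most abundant genes took 11.9% to 19% of the counts in wildtype and 7.24% to 15.8% in rescued animals. One wildtype library labelled 20°C, replicate 1, had a file equal in all 46756 counts to that of replicate 4 after heat, and was left out. Replicate 4 of both strains stood apart from the others of its strain, with the highest summed levels of intestine markers (7755 CPM, counts scaled to a common library size, in wildtype and 10151 CPM in rescued animals) and of early embryo markers (133 and 27.3 CPM). Wildtype replicate 3 stood apart in another way. For 20 of the 22 genes with a fitted log2 fold change under -6 it had the highest wildtype count. Intestine, body wall muscle, germline, oocyte, sperm and pharynx marker sums overlapped between the strains, and all 9 neuronal markers and 7 of 8 hypodermal markers were detected.

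The genes from which the transgenes take sequence were measured first. Levels of *hlh-30* (chromosome IV, 4014799-4028127, WBcel235) were 39.9, 43.5 and 73.7 CPM in wildtype and 61.1, 77.2, 57.3 and 117 CPM in rescued animals. The strains overlapped, and the log2 fold change of 0.55 ± 0.31 (SE) did not pass the threshold of 0.05 (adjusted p = 0.2735). With the replicate number as a block it did (adjusted p = 0.01635). In the mutants *hlh-30* stood at 11.6 ± 3.86 CPM (SD, n = 4), below every library of the other strains. Counts cannot say which copies came from the transgene.

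The synaptic vesicle GTPase gene *rab-3* was counted at 4.78, 6.91 and 6.27 CPM in wildtype and at 49.5, 60.1, 45.6 and 71.7 CPM in rescued animals. It rose by a log2 fold change of 3.21 ± 0.24 (adjusted p = 0.000717), with mutants at 5.12 ± 1.05 CPM. Its 3′UTR is part of the transgene, and reads on the 2 sources were counted together. The marker is described in the study as the *unc-122* promoter with a red fluorescent protein. Reads on the gene itself are therefore not a measure of the marker. This coelomocyte collagen-like gene lay at 0.633, 1.24 and 1.92 CPM in wildtype and at 2.93, 3.21, 2.40 and 5.58 CPM in rescued animals. All rescued libraries were higher. The log2 fold change of 1.45 ± 0.47 did not pass the threshold (adjusted p = 0.07664), but that of 1.55 with the replicate block did (0.01712), as it did with DESeq2 (0.02916) and with library size only (0.04523).

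The largest increase of any called gene was that of *F11C3.1*. It was counted at 3.59, 2.84 and 6.69 CPM in wildtype and at 409, 528, 371 and 790 CPM in rescued animals, a log2 fold change of 6.87 ± 0.45 (adjusted p = 0.0006257). Mutants had 3.76 ± 0.347 CPM. This gene (chromosome I, 14867924-14871467) ends 645 bp before the start of *unc-122* (14872112-14875378) on the same strand, so it lies immediately upstream of the gene whose promoter drives the injected marker. How far upstream the marker's promoter fragment reaches is not given in the sources used here, and reads from the chromosome and from an injected copy cannot be told apart.

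**Figure D1:**
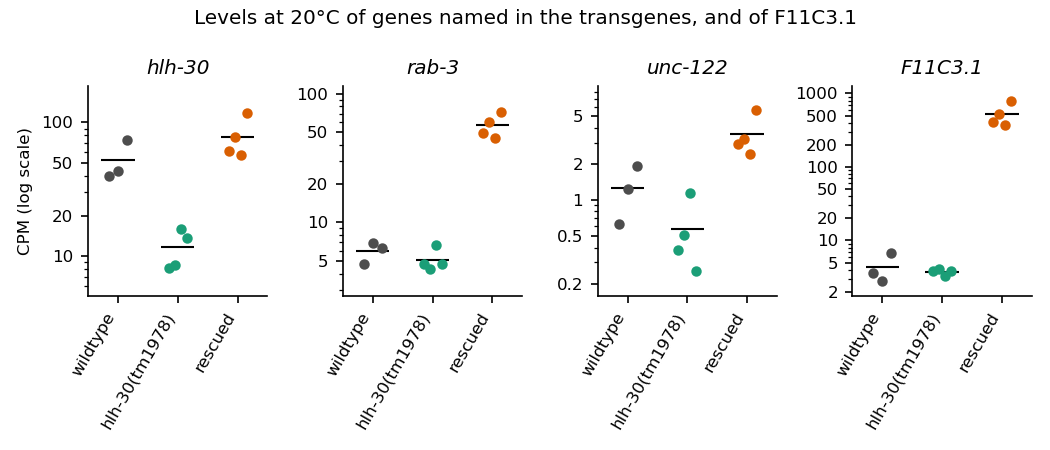
CPM on a log axis of *hlh-30*, *rab-3*, *unc-122* and *F11C3.1* in each library at 20°C, with 3 wildtype, 4 *hlh-30(tm1978)* and 4 rescued libraries as points and the group mean as a line. Rescued animals are at wildtype levels or above for *hlh-30* and far above both other genotypes for *rab-3* and *F11C3.1*.

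Across the transcriptome 674 genes rose in rescued animals and 1068 fell, which is 5.0% and 7.92% of the 13482 genes tested (12.9% in either direction, edgeR quasi-likelihood test with Benjamini-Hochberg adjustment at 0.05). The median log2 fold change of all genes was 0.01. By more than 2-fold, 498 genes rose and 489 fell. Deviations from the strain means correlated between same-numbered libraries (0.275, 0.196 and 0.554 for replicates 2, 3 and 4). They also did so between rescued replicate 3 and wildtype replicate 2 (0.436), so pairing by number is an assumption. Adding the replicate number to the fit as a block gave 1101 genes that rose and 1651 that fell. Leaving out single libraries gave 289 to 859 genes that rose and 453 to 1503 that fell, with the lowest counts without rescued replicate 2 (289 and 453) and wildtype replicate 3 (291 and 465). No gene called in one direction was called in the other in any of the settings tried, which draw on these same libraries. When only library size was used for scaling, the median of all genes shifted by 0.13 and the split became 891 higher and 747 lower, 54.4% of calls higher against 38.7%.

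Gene classes differed widely in how many of their members were called. Of the genes that rose 141 belonged to one of the listed classes, and 293 had only a sequence name. Shares of members that rose were highest in cuticle collagens, *nlp* neuropeptides and pan-neuronal genes, and shares that fell were highest in genes of the early embryo, autophagy genes and fatty acid enzymes among classes of more than 10 members.

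**Figure D2:**
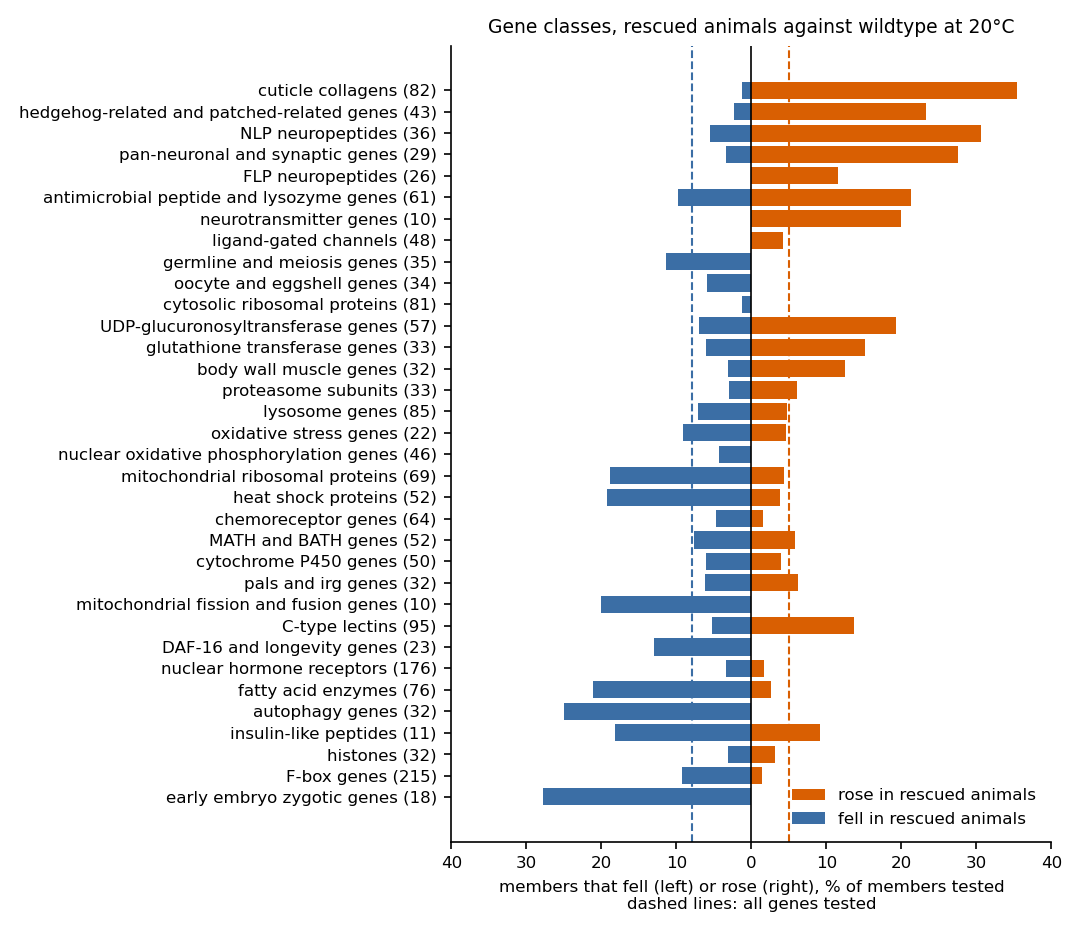
Share of tested members (number in parentheses) that rose (right) or fell (left) in rescued animals against wildtype at 20°C, for classes with at least 10 tested members and any call, ordered by median log2 fold change. Dashed lines give the shares over all genes tested, 5.0% rose and 7.92% fell. Cuticle collagens reach 35.4% on the right and early embryo zygotic genes 27.8% on the left.

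Collagens of the cuticle, the secreted exoskeleton made by the hypodermis, formed the class with the most increases. Of 82 tested collagens 29 rose (35.4%) and 1 fell, with a class median log2 fold change of 0.82 and 77 values above 0. The increase in *col-98* was from 91.6, 58.1 and 51.5 CPM in wildtype to 493, 415, 365 and 482 CPM in rescued animals (log2 fold change 2.68 ± 0.23, adjusted p = 0.0008747). Every rescued library lay above every wildtype library, which held for 12.5% of all genes tested (26.1% had strains that did not overlap in either direction). In *col-103* the change was from 94.2, 65.5 and 66.8 CPM to 445, 400, 338 and 507 CPM (2.45 ± 0.20, adjusted p = 0.000793). For *col-142* wildtype had 22.9, 16.5 and 16.5 CPM and rescued animals had 84.0, 74.6, 75.7 and 89.5 CPM (2.09 ± 0.17, adjusted p = 0.000793). These 3 collagens differ in the mutants, which held 212 ± 33.8 CPM of *col-98* and 198 ± 43.9 CPM of *col-103*, between the other strains, but 20.8 ± 3.38 CPM of *col-142*, close to wildtype.

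Large ratios were also found in collagens of low abundance. The gene *col-34* went from 1.76, 1.02 and 0.570 CPM to 11.7, 12.1, 8.59 and 19.1 CPM (log2 fold change 3.49 ± 0.45), and *col-150* from a wildtype mean of 0.618 ± 0.387 CPM to 7.07 ± 0.734 CPM. The adult cuticle collagen *col-19*, chosen here after its values were seen, rose from 353 ± 89.1 CPM (SD, n = 3) to 687 ± 68 CPM (n = 4), a log2 fold change of 0.93 ± 0.18. The only collagen that fell was *col-95*, from 846, 937 and 791 CPM to 428, 434, 426 and 404 CPM (-1.05 ± 0.11, adjusted p = 0.001622). Summed over the class, collagens took 10764 to 14153 CPM in wildtype and 17842 to 22377 CPM in rescued animals. Without wildtype replicate 3 the number of collagens that rose was 18.

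Worms have no canonical hedgehog signalling but a large family of secreted hedgehog-related proteins (*grd*, *grl*, *wrt* and others) and patched-related membrane proteins (*ptr*), many made by the hypodermis. Of 43 tested members 10 rose (23.3%) and 1 fell, with a median of 0.73. The gene *grd-13* was counted at 0.422, 0.364 and 0.214 CPM in wildtype and 6.14, 6.11, 7.19 and 6.40 CPM in rescued animals (4.21 ± 0.33, adjusted p = 0.0007498). Its neighbours on chromosome IV moved with it. The gene *grd-3* rose from 43.2, 43 and 32.8 CPM to 152.3, 141.6, 125.5 and 142.2 CPM (1.79 ± 0.14), and *grd-10* from 1.13, 0.582 and 0 CPM to 8.23, 4.15, 6.2 and 9.34 CPM (3.57 ± 0.77, adjusted p = 0.01963), a call lost without wildtype replicate 3 (adjusted p = 0.0789) or rescued replicate 3 (0.05194). Elsewhere in the genome *grd-14* rose 3.25 ± 0.24 and *grd-5* 1.88 ± 0.15 on the log2 scale. The patched-related *ptr-22* fell from 1.55, 3.27 and 2.49 CPM to 0.139, 0.237, 0.400 and 0.314 CPM (-3.15 ± 0.45, adjusted p = 0.004637), and mutants had 0.259 CPM of it on average. The count of hedgehog-related genes that rose was 6 without wildtype replicate 3 or rescued replicate 2. Hypodermal markers, summed, ran from 401 to 594 CPM in wildtype and from 777 to 914 CPM in rescued animals. Of the 6 that were tested 1 rose and 0 fell. The 1 that rose was the collagen *col-19*, whose mean went from 353 to 687 CPM and made up much of the sum. The markers *dpy-7*, *col-19* and *rol-6* are also in the collagen class and *wrt-2* in the hedgehog-related class. The sum is therefore not a measure separate from these classes, and its part in their changes was not tested.

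**Figure D3:**
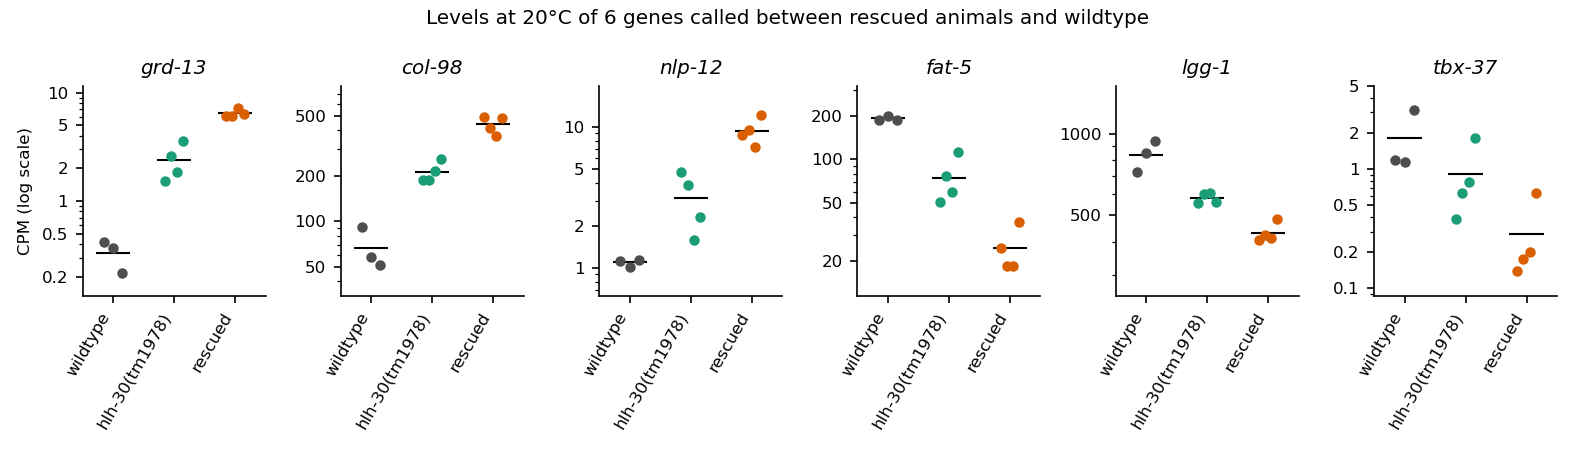
CPM on log axes of 1 gene from each of 6 classes in every library at 20°C (3 wildtype, 4 *hlh-30(tm1978)*, 4 rescued, group mean as a line). Rescued animals are higher for *grd-13*, *col-98* and *nlp-12* and lower for *fat-5*, *lgg-1* and *tbx-37*. Wildtype and rescued libraries do not overlap for any of the 6, which were chosen among called genes. The same holds for nearly all called genes (673 of 674 that rose and 1055 of 1068 that fell) and for 26.1% of all genes tested.

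Nervous system transcripts were the next group. Genes with an *nlp* symbol encode short peptides cut from larger precursors, and those known as antimicrobial peptides of the skin were counted with the defence genes below. Of the 36 other tested *nlp* genes, 11 rose (30.6%) and 2 fell, with a median log2 fold change of 0.65. Levels of *nlp-12*, the cholecystokinin-like peptide of a stretch-sensing tail neuron, were 1.13, 1.02 and 1.14 CPM in wildtype and 8.79, 9.50, 7.26 and 12.2 CPM in rescued animals (3.07 ± 0.29, adjusted p = 0.001464). The increase in *nlp-55* was from 0.563, 0.291 and 0.356 CPM to 3.49, 3.15, 1.80 and 4.39 CPM (2.93 ± 0.45). For both, all rescued libraries exceeded all wildtype libraries by several fold. The genes *nlp-58* (2.96 ± 0.56) and *nlp-13* (2.39 ± 0.35) rose to a like extent. In the other direction *nlp-51* fell from 3.59, 2.25 and 3.13 CPM to 0.837, 0.534, 0.600 and 0.376 CPM (-2.38 ± 0.36), and mutants had 0.309 CPM of it. The decrease in *nlp-5* (-1.28 ± 0.29, adjusted p = 0.02506) lost its call without any 1 of 5 libraries. The number of *nlp* genes that rose was 5 or 6 without wildtype replicate 3 or any of rescued replicates 1 to 3.

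Of the 26 tested FMRFamide-like peptide genes (*flp*) 3 rose and 0 fell, with a median of 0.50. The clearest was *flp-15*, at 1.41, 0.291 and 0.641 CPM in wildtype and 5.09, 5.94, 3.93 and 6.40 CPM in rescued animals (2.73 ± 0.49, adjusted p = 0.009646). Peptide processing and vesicle genes came next. Among 29 pan-neuronal and synaptic genes 8 rose (27.6%, *rab-3* with its transgenic sequence among them) and 1 fell, with a median of 0.60. The gene *ida-1*, a dense-core vesicle protein, went from 7.38, 3.42 and 4.27 CPM to 22.2, 18.6, 18.3 and 22.1 CPM (1.98 ± 0.29, adjusted p = 0.004966). The neuropeptide convertase *egl-3* went from 17.6, 14.5 and 11 CPM to 25.9, 29.1, 24.4 and 32.2 CPM (0.93 ± 0.21, adjusted p = 0.02294), a call lost without wildtype replicate 3 (adjusted p = 0.08175) or rescued replicate 2 (0.07792). The axonal kinesin *unc-104*, named after its values were seen, rose 1.36 ± 0.31, from a mean of 5.10 to 13.4 CPM. The pan-neuronal exchange factor *rgef-1* rose 1.52 ± 0.34 from 0.595 CPM on average, and lost its call without any 1 of 5 libraries. Without rescued replicate 2 only 2 synaptic genes were called higher. The 9 neuronal markers summed to 201 to 229 CPM in wildtype and 238 to 280 CPM in rescued animals, *rab-3* included. Without *rab-3*, whose counts include the transgene, the sums were 196 to 223 CPM in wildtype and 192 to 208 CPM in rescued animals and overlapped. Of the 9 markers 3 rose and 1 fell.

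Genes of the touch receptor neurons showed the same direction and were singled out after the values were seen. Of 14 tested genes with a *mec* symbol 5 rose (35.7%, against 5.0% of all genes) and 0 fell. At 37°C 2 of the 14 were called higher and 1 lower, and only 1 of the 5 was called again. The tubulin gene *mec-12* was at 8.23, 3.42 and 2.71 CPM in wildtype and at 25.4, 25.6, 17.5 and 29.2 CPM in rescued animals (2.32 ± 0.40, adjusted p = 0.00841). The second touch neuron tubulin, *mec-7*, went from 6.75, 2.55 and 3.56 CPM to 17.6, 14.6, 9.99 and 20.6 CPM (1.84 ± 0.39). The tubulin acetyltransferase *mec-17* rose 1.53 ± 0.35, and the extracellular matrix genes *mec-1* and *mec-9* rose 2.02 ± 0.40 and 2.40 ± 0.63. Wildtype and rescued libraries did not overlap for *mec-12*, *mec-7* and *mec-17*, as for 26.1% of all genes tested. Of 48 tested ligand-gated channel genes 2 rose (4.17%, near the 5.0% of all genes) and 0 fell, and 1 of the 2 was called again at 37°C. Among them, glutamate receptor genes of the kainate type were low throughout. The gene *glr-5* was at 0.308 ± 0.146 CPM in wildtype and 1.74 ± 0.280 CPM in rescued animals (2.43 ± 0.44).

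Few insulin-like peptides, the ligands of the DAF-2 receptor, were called. Of 11 tested genes 1 rose (9.09%, against 5.0% of all genes) and 2 fell (18.2%, against 7.92%), too few to describe the class. The peptide gene *ins-19* (chromosome II, 3126037-3126441) was the single gene with at least 20 counts in every wildtype library and at no more than 3 counts in every rescued one. Its raw counts were 98, 94 and 102 in wildtype and 0, 1, 3 and 2 in rescued animals, at least 30.9-fold lower against a floor of 3 counts per library. Mutants had 11 to 33 counts. The other gene that fell, *ins-31*, rested on 1 library, with 0.563, 8.87 and 0 CPM in wildtype and at most 0.0627 CPM in rescued animals (adjusted p = 0.04032), and its call was lost with DESeq2 (0.06615), without wildtype replicate 3 (0.1911) and without each rescued library. The gene *ins-33* was at no more than 0.0712 CPM in wildtype and at 0.558, 1.07, 0.600 and 2.01 CPM in rescued animals (adjusted p = 0.01535), a call lost without wildtype replicate 3 (0.06111).

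Defence genes moved in both directions. Of 61 tested antimicrobial peptide and lysozyme genes 13 rose (21.3%) and 6 fell. Peptides made in the hypodermis were among those that rose. Levels of *nlp-24* were 26.2, 19.6 and 18.1 CPM in wildtype and 83, 73.1, 64.5 and 88.9 CPM in rescued animals (1.83 ± 0.19, adjusted p = 0.001667). Its relative *nlp-27* rose 1.49 ± 0.14 and the caenacin *cnc-8* rose 1.51 ± 0.21. The next gene on the chromosome, *nlp-28*, fell from 28.3, 30.5 and 33.2 CPM to 15.8, 14.5, 15.5 and 12 CPM (-1.12 ± 0.16). The fungus-induced-protein family gene *fip-6* rose from 0.281, 0.218 and 0.427 CPM to 5.30, 7.89, 4.6 and 8.03 CPM (4.32 ± 0.41, adjusted p = 0.001483).

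Other members fell. The saposin-like *spp-2* went from 53.4, 62.6 and 105 CPM to 11.9, 9.38, 9.99 and 23.6 CPM (-2.45 ± 0.38), and mutants had 4.57 ± 0.315 CPM. The thaumatin family gene *thn-2* fell from 48.9, 99.0 and 54.5 CPM to 11.8, 9.02, 7.66 and 14.9 CPM (-2.66 ± 0.31), and the lysozyme *lys-10* from 3.00 ± 0.422 to 0.310 ± 0.227 CPM. Among 95 tested C-type lectins, secreted proteins with carbohydrate-binding folds, 13 rose (13.7%) and 5 fell around a median of -0.13. The largest called increase, *clec-210*, was from 2.11, 2.04 and 1.07 CPM to 13.5, 8.19, 8.19 and 24.2 CPM (2.93 ± 0.49), and *clec-52* rose 2.73 ± 0.41. The lectin *clec-222* fell from 78.9 ± 21.4 to 28.8 ± 4.74 CPM (-1.48 ± 0.22).

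Detoxification genes also split. Of 57 tested UDP-glucuronosyltransferases, which attach sugars to lipophilic compounds, 11 rose (19.3%) and 4 fell. The 2 largest increases were in *ugt-66*, from 0.633, 0.582 and 0.427 CPM to 4.74, 3.74, 4.0 and 9.60 CPM (3.29 ± 0.47), and in *ugt-30*, 2.97 ± 0.41. Of those that fell, *ugt-62* went from 665, 889 and 900 CPM to 104.2, 276.5, 247.3 and 263.8 CPM (-1.90 ± 0.31), and *ugt-19* from 57.1 ± 6.52 to 14.7 ± 5.04 CPM. Of 33 glutathione transferases 5 rose and 2 fell. The SKN-1 target *gst-4* rose from 14.3, 15.4 and 12.7 CPM to 32.8, 34, 35 and 47.7 CPM (1.37 ± 0.19, adjusted p = 0.004566), *gst-10* rose 1.62 ± 0.26 and *gsto-3* fell by 1.22 ± 0.18. The mitochondrial superoxide dismutase *sod-3* was at 3.09, 2.69 and 1.92 CPM in wildtype and 9.97, 8.78, 7.79 and 9.47 CPM in rescued animals (1.78 ± 0.25, adjusted p = 0.004534). Mutants were at 2.44 ± 0.771 CPM. Of the 22 tested oxidative stress genes, *sod-3* was the 1 that rose (4.55%) and 2 fell (9.09%), shares near those of all genes. The metallothionein *mtl-1* fell from 13.4, 29.8 and 17.7 CPM to 2.51, 4.04, 3.80 and 4.77 CPM (-2.45 ± 0.33), and *cdr-4* from 124, 149 and 116 CPM to 21.1, 41.1, 35.5 and 33.1 CPM (-2.02 ± 0.22).

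Among lipid genes more members fell than rose. Of 76 tested fatty acid enzymes 16 fell (21.1%, against 7.92% of all genes) and 2 rose, with a median of -0.31. The delta-9 desaturases insert the first double bond into saturated fatty acids. The palmitate desaturase *fat-5* was at 187, 200 and 188 CPM in wildtype and at 24.6, 18.6, 18.5 and 36.9 CPM in rescued animals (-2.99 ± 0.25, adjusted p = 0.000793), with mutants at 74.8 ± 26.9 CPM. The stearate desaturase *fat-7* fell from 628, 760 and 851 CPM to 196, 167, 194 and 340 CPM (-1.76 ± 0.25), and *fat-6*, named after its values were seen, from 665, 919 and 1109 CPM to 298, 393, 373 and 650 CPM (-1.09 ± 0.28, adjusted p = 0.03801). The highest rescued library, replicate 4, stayed below the lowest wildtype library for each of these. Further along the pathway to polyunsaturated fatty acids the delta-12 desaturase *fat-2*, also named after its values were seen, fell from 1991 ± 496 to 925 ± 292 CPM (-1.13 ± 0.27).

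The acyl-CoA synthetase *acs-17* went from 46.6, 48.5 and 88.1 CPM to 13, 11.4, 10.2 and 19.8 CPM (-2.20 ± 0.31) and the fatty acid binding protein *lbp-4* from 260, 334 and 218 CPM to between 113.3 and 117.2 CPM in the 4 rescued libraries (-1.26 ± 0.14). The members that rose were the enoyl-CoA hydratase *ech-6* (0.88 ± 0.20) and the acyl-CoA dehydrogenase *acdh-2* (1.09 ± 0.21), whose calls were both lost without wildtype replicate 3 (adjusted p = 0.09358 and 0.05618). Without that library 6 fatty acid enzymes fell, and with both libraries numbered 4 left out 28 did. Lysosomal lipases, which HLH-30 activates on fasting, held 2 of 6 members that fell. One was *lipl-4*, at 4.57, 2.25 and 5.41 CPM in wildtype and 0.906, 0.594, 0.999 and 1.51 CPM in rescued animals (-2.05 ± 0.43, adjusted p = 0.01711), a call lost without rescued replicate 2 (0.0571) or 3 (0.05634). Of 6 vitellogenins, the yolk proteins, all values were below 0 and 1 was called, *vit-3* (-0.83 ± 0.22, adjusted p = 0.04348). That call did not hold without wildtype replicate 3 or 4 or rescued replicates 1 to 3.

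Autophagy genes, the class for which HLH-30 is best known, held 8 members that fell (25%) and 0 that rose among 32 tested, with a median of -0.47. The block raised the number that fell to 13. Levels of *lgg-1*, the worm ATG8 that coats autophagosomes, were 724, 852 and 939 CPM in wildtype and 404, 422, 413 and 483 CPM in rescued animals (-0.99 ± 0.13, adjusted p = 0.004039). Mutants were at 579 ± 24.3 CPM. The conjugating enzyme gene *atg-10* fell from 10.3, 12.9 and 9.76 CPM to 3.42, 3.98, 5.73 and 4.52 CPM (-1.34 ± 0.24), with an adjusted p of 0.009863 that became 0.0505 without wildtype replicate 3. In mutants *atg-10* was at 10.5 ± 1.2 CPM, as in wildtype. The Beclin gene *bec-1* fell from 83.4 ± 3.45 to 59.3 ± 3.31 CPM (-0.52 ± 0.11, adjusted p = 0.01601), a call lost without wildtype replicate 3 (0.06041) or rescued replicate 2 (0.07619), with library size only (0.08246) and with the length trend removed (0.05472). The second ATG8, *lgg-2*, and the embryonic autophagy substrate *sepa-1*, both named after their values were seen, fell by 0.74 ± 0.21 and 2.61 ± 0.69 on the log2 scale. The levels of *sepa-1* followed the early embryo markers, with 21.2, 35.1 and 111 CPM in wildtype and 4.95, 5.70, 5.60 and 20.9 CPM in rescued animals. Only 1 autophagy gene was called without wildtype replicate 3, and between 2 and 3 without wildtype replicate 4 or rescued replicates 1 to 3.

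Lysosome genes were called in both directions. Of 85 tested members 4 rose (4.71%) and 6 fell (7.06%), with a median of 0.06. These shares were near those of all genes (5.0% and 7.92%). The cathepsin B genes *cpr-1* and *cpr-5* fell, *cpr-1* from 1063, 1386 and 1470 CPM to 209 ± 99.0 CPM (SD, n = 4) (-2.67 ± 0.36) and *cpr-5* from 944, 1101 and 1118 CPM to 205, 302, 269 and 367 CPM (-1.91 ± 0.20). In mutants *cpr-1* was at 216 ± 77.1 CPM, as in rescued animals, and *cpr-5* at 800 ± 107 CPM, nearer to wildtype. The hexosaminidase *hex-1* fell by 1.64 ± 0.23 and the coelomocyte-rich mannosidase *aman-1* by 2.67 ± 0.31. The coelomocyte markers, *aman-1* among them, summed to 47.1 to 65.6 CPM in wildtype and 27.3 to 40.9 CPM in rescued animals. Of these 5 markers 1 fell, *aman-1* itself, and 0 rose. It went from 9.14, 21.6 and 13.7 CPM to 2.09, 2.31, 2.26 and 2.82 CPM, so it carries part of the difference between the sums. Another of the markers, *unc-122*, was higher in every rescued library. The aspartyl protease *asp-12* rose from 17.6, 9.31 and 19.2 CPM to 267, 109, 58.1 and 420 CPM (3.77 ± 0.70, adjusted p = 0.01098, or 0.05595 without wildtype replicate 3), and the proton pump subunit *vha-5* from 71.4 ± 8.78 to 136 ± 17.3 CPM (0.90 ± 0.15).

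Most mitochondrial and chaperone genes were not called. Of 10 tested fission and fusion genes 2 fell and 0 rose. The adaptor *fis-2* was at 46.2, 45.1 and 43 CPM in wildtype and 25.4, 24.2, 21.2 and 27 CPM in rescued animals (-0.90 ± 0.14, adjusted p = 0.005915), and *mff-2* at 173, 195 and 156 CPM and at 108 ± 6.32 CPM (-0.73 ± 0.11, adjusted p = 0.005357). Mutants had 38.3 ± 3.33 CPM of *fis-2* and 192 ± 16.6 CPM of *mff-2*. The fission GTPase *drp-1* (0.05 ± 0.18), the fusion GTPase *eat-3* (0.17 ± 0.12) and *mff-1* (-0.29 ± 0.26) were not called. Of *fis-1* too little was counted for a test. Among 69 mitochondrial ribosomal proteins 13 fell (18.8%) and 3 rose around a median of 0.01, with *mrpl-51* falling from 314, 391 and 266 CPM to 171, 192, 189 and 164 CPM (-0.88 ± 0.14) and *mrps-24* by 0.84 ± 0.14. The copper chaperone *cox-19* fell by 0.89 ± 0.14. Of 52 heat shock and DnaJ proteins 10 fell (19.2%) and 2 rose. The endoplasmic reticulum chaperone *hsp-4* fell from 316, 274 and 371 CPM to 198, 186, 199 and 137 CPM (-0.86 ± 0.16, adjusted p = 0.01118). The inducible *hsp-70* was near the limit of counting at 0.422, 0.509 and 1.28 CPM in wildtype and 4.88, 2.08, 2.20 and 3.89 CPM in rescued animals (2.1 ± 0.52, adjusted p = 0.03362), and its call was lost without any of 5 libraries.

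Genes that fell were shorter than genes in general, with a median exon length of 868 bp against 1318 bp. The median was 900 bp for those that fell by a log2 fold change over 1 and 846 bp for the others. When genes were divided by exon length into 5 equal bins, in the shortest bin (up to 760 bp) 432 of 2700 fell (16%) and 153 rose (5.67%). In the longest bin (from 2228 bp) 39 of 2696 fell (1.45%) and 118 rose (4.38%). The median log2 fold change went from -0.14 in the shortest to 0.11 in the longest bin at 20°C, and from -0.39 to 0.21 at 37°C. Mitochondrial ribosomal genes have a median length of 759 bp, and 8 of them fell once the length trend of each library was removed. With the trend removed 8 autophagy genes and 18 fatty acid enzymes fell.

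Genes switched on in the early embryo all had values below 0 in rescued animals against wildtype. Of 18 tested zygotic genes 5 fell (27.8%) and 0 rose, 13 were not called and the median was -2.33, the lowest of the functional classes. The T-box gene *tbx-37* was at 1.2, 1.16 and 3.13 CPM in wildtype and 0.139, 0.178, 0.200 and 0.627 CPM in rescued animals (-2.66 ± 0.62, adjusted p = 0.02711). The very early transcript *vet-1* went from 17.4, 26.4 and 104.1 CPM to 4.8, 4.8, 4.8 and 17.6 CPM (-2.65 ± 0.72, adjusted p = 0.04459), with replicate 4 highest in each strain and a small overlap. With the replicate block 13 of the class fell, and without any 1 of wildtype replicates 3 and 4 or rescued replicates 1 to 3 the number was 0. Early embryo markers summed to 25.9, 41.9 and 133 CPM in wildtype, to 6.55, 9.32, 5.93 and 27.3 CPM in rescued animals and to 20.3 to 55.8 CPM in mutants. These markers are all members of the zygotic class, so their sums are not a measure separate from it. The cause of the decreases was not tested.

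F-box genes, the substrate adaptors of SCF ubiquitin ligases, were called lower at a share near that of all genes. Of 215 tested members 20 fell (9.30%, against 7.92% of all genes) and 3 rose, 177 values were below 0 and the median was -1.2. The number that fell depended on the fit, with 93 under the replicate block, 11 with upper quartile scaling and 84 without rescued replicate 4. The clearest member, *fbxa-83*, went from 25.6, 38.7 and 35.4 CPM to 6.97, 6.41, 6.39 and 11.9 CPM (-2.1 ± 0.28, adjusted p = 0.003688), with mutants at 27.9 ± 0.663 CPM. The Skp1-related genes, which join F-box proteins to the ligase, were noticed afterwards. Of 18 tested *skr* genes 10 fell (55.6%, against 7.92% of all genes) and 0 rose. Of those that fell 4 (*skr-13*, *skr-9*, *skr-8* and *skr-12*) lay side by side on chromosome IV from 17162024 to 17168051. Levels of *skr-9* were 21.7, 36.3 and 78.8 CPM in wildtype and 5.58, 5.10, 3.73 and 14.7 CPM in rescued animals (-2.67 ± 0.57), again with replicate 4 highest in both strains, as for the embryo markers. How reads that match several gene copies were counted is not given in the sources used here, so single values of such families are uncertain.

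Another cluster differed in its pattern over genotypes. Of 12 tested *nspc* genes, nematode-specific peptides, 10 fell (83.3%, against 7.92% of all genes) and 0 rose. Of those that fell 5 lay in a row on the X chromosome (14523575-14530214). The gene *nspc-17* was at 2.53, 5.75 and 1.71 CPM in wildtype and 0.349, 0.297, 0.0666 and 0.125 CPM in rescued animals (-3.97 ± 0.61, adjusted p = 0.005523). Mutants were as low, at 0.0765, 0.380, 0.263 and 0.127 CPM. The family median was -2.62 against wildtype in rescued animals and at 37°C 11 of 12 were called lower and 0 higher. The family was picked after its values were seen.

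Several of the genes with the largest decreases belonged to none of the classes. The noncoding RNA *tts-1*, an abundant transcript bound to ribosomes in long-lived worms, was at 516, 441 and 522 CPM in wildtype and at 16.3, 1.6, 0.866 and 0.878 CPM in rescued animals (-6.71 ± 0.97, adjusted p = 0.004884). The alcohol dehydrogenase *adh-1* fell from 42.3, 35.1 and 33 CPM to 2.02, 0.890, 0.666 and 1.19 CPM (-4.98 ± 0.34, adjusted p = 0.0006257). Both were also low in the mutants, at 1.37 ± 0.839 CPM for *tts-1* and 0.474 ± 0.173 CPM for *adh-1*. The same held for *Y43F8B.9*, with 13.8 ± 0.980 CPM in wildtype, 1.77 ± 0.255 CPM in rescued animals (-2.99 ± 0.22) and 2.30 CPM in mutants. Other genes were lower in rescued animals than in both other strains. The unnamed gene *Y41C4A.32* had 137, 221 and 94.7 CPM in wildtype, 50.2 ± 30.9 CPM in mutants and 8.16, 6.65, 7.19 and 8.28 CPM in rescued animals (-4.34 ± 0.28). The ARF-family GTPase *warf-1* fell from 21.4 ± 5.77 to 2.12 ± 0.509 CPM (-3.35 ± 0.28), with 9.11 ± 6.18 CPM in mutants. A large decrease in a listed class was that of the MATH-domain gene *math-45*, by 3.51 ± 0.42 on the log2 scale. Of 52 tested MATH and BATH genes 3 rose (5.77%) and 4 fell (7.69%), shares near those of all genes. Of the genes with the largest increases, *ram-2*, named for misshapen male tail rays, went from 1.05, 0.145 and 0.570 CPM to 4.67, 9.02, 7.06 and 7.27 CPM (3.52 ± 0.54).

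Genes of the longevity network were mostly not called. Of 23 genes 3 fell and 0 rose. The Mad-like *mdl-1* and its partner *mxl-1* were both among them, *mdl-1* from 25.6, 24.9 and 43.4 CPM to 11.6, 7.60, 6.06 and 14.9 CPM (-1.67 ± 0.35, adjusted p = 0.01711, or 0.06182 without rescued replicate 2) and *mxl-1* from 144.1, 172.2 and 121.8 CPM to 79.1, 76.3, 82.9 and 75.9 CPM (-0.92 ± 0.13). The zinc finger gene *pqm-1* fell by 1.28 ± 0.26 (adjusted p = 0.01459, or 0.05012 without wildtype replicate 3 and 0.05118 without rescued replicate 3). Levels of *daf-16* (log2 fold change -0.02 ± 0.19), *daf-2* (-0.51 ± 0.31), the exportin *xpo-1* (-0.16 ± 0.18), the synaptic *unc-13* (0.83 ± 0.33), *W06A11.1* (0.51 ± 0.52) and *Y7A5A.6* (-1.28 ± 0.41) did not pass the threshold, with adjusted p of 0.9578, 0.2994, 0.5755, 0.1353, 0.5341 and 0.07573. The gene *W06A11.1* was counted at no more than 0.831 CPM in any of the 7 libraries, and a difference of the size of its standard error was not detectable at this depth. A call of *Y7A5A.6* was gained without rescued replicate 4 (adjusted p = 0.02809), with both libraries numbered 4 left out (0.02355) and in the fits of 11 (0.02354) and 23 libraries (0.01745), and one of *unc-13* in the fit of 23 libraries (0.0205).

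Genes that rose were not spread evenly over the genome. In windows of 1 Mb with at least 50 tested genes the share that rose was at most 14.9% everywhere but in 1 window. On chromosome III from 8 to 9 Mb (WBcel235) 55 of 201 tested genes rose (27.4%) and 5 fell, against 63 of 1973 on the rest of the chromosome (3.19%). The window was singled out after its values were seen. Within it 51 of the 55 lay between 8200 and 8800 kb, where 42.9% of the tested genes rose, 0 fell, 102 had a positive log2 fold change and the median was 0.60. The flanks had medians of 0.22 in the 100 kb before and -0.23 in the 100 kb after. In the 37°C libraries, which are separate samples, 72 of the same genes (60.5%) were higher in rescued animals and 7 lower, with a median of 0.58. The median of these genes in mutants against wildtype at 20°C was 0.05, and in rescued animals against mutants 0.64.

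The block held genes of unrelated function. The mitochondrial ribosomal protein *mrps-9* went from 56.4, 51.9 and 41.5 CPM to 81.8, 84.6, 84.5 and 69.7 CPM (0.65 ± 0.14, adjusted p = 0.02031) and *mrpl-11* from 99.7, 94.3 and 72.3 CPM to 144, 139, 148 and 120 CPM (0.60 ± 0.14). Both proteasome subunits that rose in the data, *pbs-6* (0.77 ± 0.21, adjusted p = 0.04297) and *rpn-3* (0.56 ± 0.15, adjusted p = 0.04697), lie there too. Each of the 4 lost its call without wildtype replicate 3 and without other single libraries, and the number of genes of the window that rose was 28 to 64 over the single libraries left out. Larger changes stood out within the block. The gene *C02F5.14* rose from 1.41, 0.800 and 0.285 CPM to 13.8, 13.2, 10.8 and 24.2 CPM (4.18 ± 0.53, adjusted p = 0.00316) and the lectin *clec-160* from 8.58, 3.42 and 3.49 CPM to 28.7, 35.7, 27.1 and 54.4 CPM (2.79 ± 0.42). The dual oxidase maturation factor *doxa-1*, which acts in cuticle cross-linking and was named after its values were seen, rose from 2.25, 1.6 and 1.5 CPM to 12.7, 13.4, 13.3 and 15.9 CPM (2.92 ± 0.25, adjusted p = 0.000875).

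**Figure D4:**
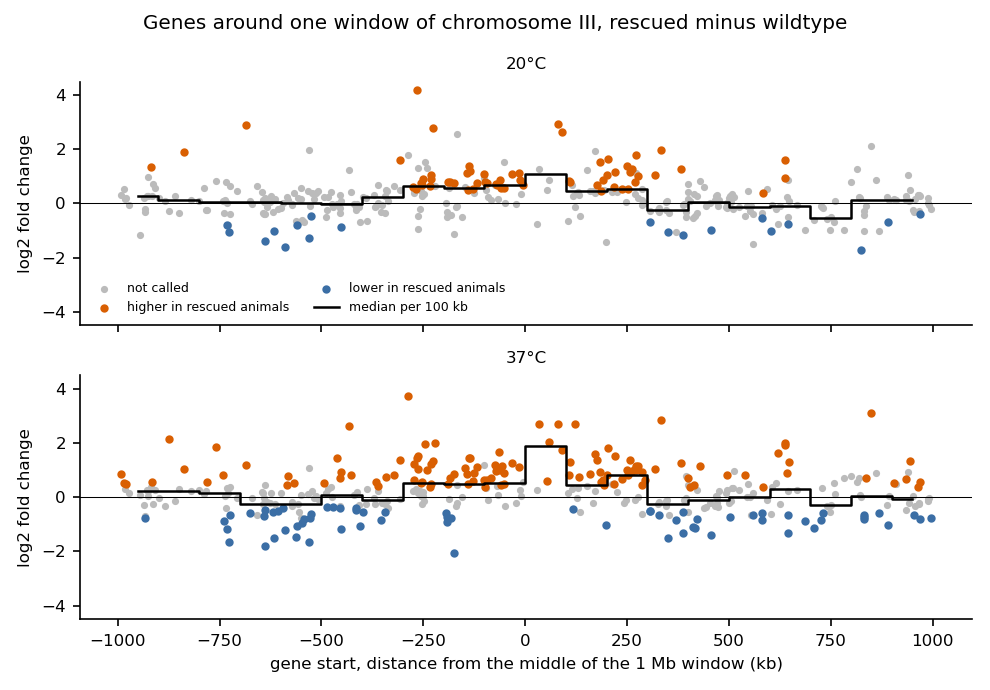
Log2 fold change of rescued against wildtype animals for genes of chromosome III, plotted by distance of the gene's start from the middle of the 8 to 9 Mb window, at 20°C (top, 7 libraries) and 37°C (bottom, 8 libraries), with the median per 100 kb as a black line. Genes called higher are densest around the middle at both temperatures, and 1 gene, *F59B2.12*, lies below the plotted range at -9.84 and -10.44.

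The 8 libraries from 37°C allowed the same strain difference to be measured again in other samples. There 2453 genes were higher and 2956 lower in rescued animals (18.2% and 21.9% of those tested, 40.1% together). Of the 674 genes that rose at 20°C 438 were called higher at 37°C (65.0%) and 5 lower, and 653 had the same sign. Of the 1068 that fell 910 were called lower (85.2%) and 16 higher, and 1018 had the same sign. Without single libraries from 37°C these numbers ranged from 363 to 484 and from 844 to 904. Among collagens 48 of 82 were higher at 37°C, including 26 of the 29 that rose at 20°C. Of the 11 *nlp* genes that rose 4 were called again, of the 10 hedgehog-related genes 9, of the 16 fatty acid enzymes that fell 11 and of the 8 autophagy genes 6.

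The interaction of strain and temperature, fitted over 15 libraries, passed for 251 genes (1.86%), among them 11 that rose and 43 that fell at 20°C. For *fat-5* the log2 fold change of -2.99 at 20°C was -1.21 at 37°C (adjusted p of the difference 0.0386). The cathepsin *cpr-1* went from -2.67 to -0.34 (0.04601) and *acs-17* from -2.20 to -0.35 (0.01693). A change of sign was found in *vit-3*, at -0.83 before and 0.88 after heat (0.01707), in *clec-10*, at -0.97 and 0.76 (0.01227), and in *hsp-70*, at 2.1 and -0.85 (0.01685). The collagens and hedgehog-related genes named above had no interaction past the threshold.

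**Figure D5:**
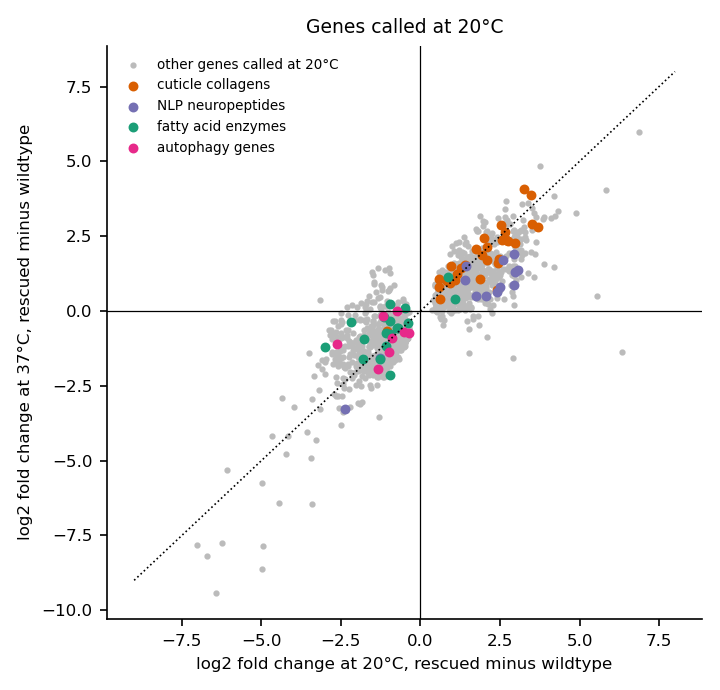
Log2 fold change of rescued against wildtype animals at 37°C (8 libraries) against that at 20°C (7 other libraries) for the 1742 genes called at 20°C, with 4 classes in colour and equality as a dotted line. Most points have the same sign on both axes, with collagens near the dotted line.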

How the data were processed

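RNA of whole *C. elegans* was sequenced and the authors deposited raw counts per gene, 1 table per library, which they made with Trimmomatic, STAR and featureCounts of the Subread package on WBcel235 (tools per the submitters' processing notes and the study's methods). Counts were used as deposited. Exon lengths were those deposited with the counts. Biotypes came from Ensembl 115, which holds 46581 of the 46756 gene IDs. Symbols came from a reference list of gene names and, where it had none, from Ensembl 115. Whether counting used strand is not given in the sources used here, so overlapping and antisense genes may share reads.

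Rescued replicates 1 to 4 were compared with wildtype replicates 2 to 4 by the quasi-likelihood F-test of edgeR 4.0.16 (R 4.3.3) with TMM scaling, on 13482 genes with a mean of at least 10 counts over 23 libraries, and p-values were adjusted by Benjamini-Hochberg at 0.05. Standard errors were the log2 fold change divided by the square root of F. CPM values are scaled by TMM over 23 libraries. The same test was run on 8 libraries from 37°C, on the interaction over 15 libraries, and on 3 genotypes at 20°C. The study calls its replicates independent, and p-values measure the spread between these samples of 1 line per strain. For a single value an exact permutation test of 4 against 3 cannot go below p = 0.0571.

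Members, gene classes and tests were chosen with earlier results of these data known. Genes named are *hlh-30*, *rab-3* and *unc-122*, from which the transgenes take sequence, and genes the study names. Also named are the 12 with the largest change in each direction. These had to be called, with a mean of at least 50 counts and no overlap of the strains. Up to 4 called members of each class and direction with the smallest p were added. So were genes at no more than 3 counts in one strain and at least 20 in the other. Genes said to be named after their values were seen fall outside this rule, as do the chromosome III window and the *mec*, *skr* and *nspc* families. Same-numbered libraries of the strains correlated in their deviations from the strain means (0.275, 0.196 and 0.554 for replicates 2, 3 and 4). Some libraries with different numbers did so as much (0.436 for rescued 3 with wildtype 2 and 0.261 for rescued 2 with wildtype 3), and the others were negative. Every same-numbered pair was over 0.1, but pairing by number is an assumption. The main test used no block, and the block result is given beside it where it changes a call. Rescued replicate 1 had no partner.

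On simulated counts of 13482 genes with 200 changed, the test recovered 37 at a log2 fold change of 1 and 145 at 2, with 1 and 14 unchanged genes called. More genes were called in the data (1742), and recovery with that many changed was not simulated. Libraries held 13261171 to 15845829 counts, and these limits cover counting and replicate error only. Alternatives were DESeq2 1.42.0, other scalings, filters, thresholds and fits, the block and leaving out each library. Removal of the length trend and leaving out both libraries numbered 4 were added after the data were seen.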

Additional observations from a re-analysis of the deposited data

Results flagged for a closer look

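In the rescued group of 4 libraries 11 of 107 genes described in the text had 1 library far from the other 3 (Dixon's ratio of gap to range), where chance gives about 5 in 100 groups. In 8 of the 11 replicate 4 was the highest. These 8 were *ins-31* (ratio 1.000), *vet-1* (0.999), *mff-1* (0.923), *fbxa-83* (0.894), *tbx-37* (0.876), *Y7A5A.6* (0.855), *gst-4* (0.852) and *fat-7* (0.831). Replicate 4 was the lowest for *mff-2* (0.868). Replicate 1 was the highest for *tts-1* (0.952) and the lowest for *ugt-62* (0.831).

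For 9 named genes the difference between strains was not the same at 20°C and 37°C by the interaction term of edgeR's quasi-likelihood test. The log2 fold change at 37°C minus that at 20°C was 2.40 for *cpr-1* (adjusted p = 0.04601), 2.02 for *thn-2* (0.04601), 1.90 for *acs-17* (0.01693), 1.84 for *fat-5* (0.0386), 1.79 for *clec-10* (0.01227), 1.78 for *vit-3* (0.01707) and 1.36 for *Y43F8B.9* (0.02458). It was -2.67 for *C02F5.14* (0.03224) and -2.88 for *hsp-70* (0.01685).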

How the results depend on the processing

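The rule for named genes gave 191 genes, not all of which are described. Of these, 179 were past the threshold. All 179 kept their direction in the 20 settings, but these draw on the same libraries and are no separate support. The stricter p and fold change thresholds reuse the main fit and cannot change a sign. Apart from those thresholds, 137 stayed called in every setting that kept all 7 libraries, and 98 did so without each library in turn. At this depth and number of libraries log2 changes near 1 were often not detectable. Single libraries decided many class counts, and the causes were not tested.

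The count of genes that rose (674) or fell (1068) was 1101 and 1651 with the replicate block, 1300 and 1854 in 1 fit of the 23 libraries, 207 and 369 at an adjusted p under 0.01, and 1028 and 1789 with both libraries numbered 4 left out. With an absolute log2 fold change of at least 1 it was 489 for those that fell. Without single libraries it ranged from 289 to 859 and from 453 to 1503.

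At an adjusted p under 0.01 the counts were 18 collagens, 5 hedgehog-related, 3 *nlp*, 2 synaptic and 6 antimicrobial genes and 28 genes of the chromosome III window that rose, and 5 fatty acid, 2 autophagy, 0 early embryo, 3 F-box and 4 mitochondrial ribosomal genes that fell. With an absolute log2 fold change of at least 1 they were 5 synaptic, 8 fatty acid, 3 autophagy, 0 mitochondrial ribosomal and 24 window genes. With at least 10 counts in every library they were 6 hedgehog-related, 5 *nlp*, 2 early embryo and 12 F-box genes. The replicate block gave 13 autophagy, 13 early embryo and 93 F-box genes and moved no other of these class counts by over 1.5 times. In 1 fit of the 23 libraries there were 13 synaptic, 16 autophagy, 15 early embryo and 98 F-box genes, and in 1 fit of the 11 libraries at 20°C 12 early embryo and 61 F-box genes. Both libraries numbered 4 left out gave 28 fatty acid, 13 autophagy, 12 early embryo and 79 F-box genes. DESeq2 gave 11 early embryo and 73 F-box genes, its size factors in edgeR 9 and 32, upper quartile factors 1 and 11 with 4 autophagy genes, and no filter 12 and 74. Library size only gave 4 autophagy and 8 mitochondrial ribosomal genes, and removal of the length trend 10 early embryo and 8 mitochondrial ribosomal genes.

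Without single libraries the counts ranged from 18 to 30 for collagens, 6 to 10 for hedgehog-related, 5 to 10 for *nlp*, 2 to 9 for synaptic, 7 to 13 for antimicrobial, 6 to 29 for fatty acid, 1 to 12 for autophagy, 0 to 14 for early embryo, 4 to 84 for F-box, 6 to 15 for mitochondrial ribosomal and 28 to 64 for window genes.

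The sign changed in some settings for 3 genes with no call. For *daf-16* (-0.02) the value was 0.01 with upper quartile factors, with at least 10 counts in every library and in the fit of 23 libraries, 0.10 with library size only, and between 0.01 and 0.06 without wildtype replicate 4 (0.04) or rescued replicates 1, 2 or 3. Over all single libraries left out it ranged from -0.21 to 0.06. For *drp-1* (0.05) it was -0.06 with the replicate block, -0.03 with the length trend removed, and -0.05, -0.04 and -0.02 without wildtype replicate 3 or rescued replicates 1 or 3, in a range from -0.05 to 0.16. For *xpo-1* (-0.16) it ranged from -0.34 to 0.04 without single libraries, positive without wildtype replicate 4, and was 0.09 with both libraries numbered 4 left out.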

Other observations

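For 22 genes the fitted log2 fold change of rescued animals against wildtype was under -6, and 5 of them were called at 20°C. Of these 22, 21 had no more than 3 counts in every rescued library at 20°C, and 20 were highest in wildtype replicate 3. Without *tts-1* their summed counts were 1449 in wildtype replicate 3 and no more than 206 in wildtype replicates 2 and 4, and 0, 2, 3 and 4 in rescued replicates 1 to 4. In mutants at 20°C the sums were 13, 143, 36 and 11. At 37°C they were 38, 186, 6369 and 8021 in wildtype and 0, 8, 27 and 10 in rescued animals, so wildtype libraries of one group differed widely from each other.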
